A study of Mus musculus with 6 samples.

Results

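The Egr, Nr4a and Ier early genes were followed in ovarian tissue of adult female rats that had been exposed to cowshed PM2.5, the fine particles of barn air. They are 10 genes, chosen by name from the 22487 gene rows of the deposited table: Egr1, Egr2, Egr3, Nr4a1, Nr4a2, Nr4a3, Ier2, Ier3, Ier5 and Rgs2. Each name stood on a single row, and all 10 were among the 15303 genes tested. RNA sequencing measured 3 libraries of the PM2.5 group, labelled as wild-type ovary with cowshed PM2.5 exposure, and 3 libraries of the control group, labelled as wild-type ovary with no treatment. All titles carry the figure of 30 days and do not define it. Dose, route and the time from the last exposure to dissection were not given in the sources. Although the organism field reads mouse, the titles read rat and all 22487 identifiers come from rat Ensembl, so the genes are treated as rat genes.

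Immediate early genes are transcribed within minutes of a stimulus without new protein synthesis, mainly through serum response factor with its ternary complex partners and through CREB, which the ERK and protein kinase A pathways activate. The EGR proteins are zinc finger transcription factors, and the NR4A proteins are orphan nuclear receptors whose activity follows their abundance. In the rodent ovary, luteinizing hormone is known to raise Egr1, Nr4a1 and Rgs2 in follicle cells before ovulation. Their transcripts are short-lived, so a level reads the state of the tissue shortly before it was taken.

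The total count per library lay between 47662338 and 60749578, and between 19258 and 19841 genes had a count. Whether replicate libraries stem from different animals is not stated, so the p-values only reflect how these samples vary, which may be technical. Follicle and oocyte markers were present in every library, with all 9 listed genes detected and a summed level of 2520 to 7618 CPM in PM2.5 libraries and 1328 to 5330 CPM in control libraries (CPM, the count scaled by library size and by the trimmed mean of M-values). Over all genes, 142 of 15303 (0.928%) were called by the edgeR quasi-likelihood model, with Benjamini-Hochberg adjusted p under 0.05, and 0.738% were lower and 0.190% higher in PM2.5. The tissue was sequenced in bulk, where fewer cells of a type and less RNA per cell cannot be told apart.

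All 10 early genes had a negative log2 fold change, PM2.5 over control, but the libraries behind it were of 3 kinds. Ier3 and Ier5 were lower in each PM2.5 library than in each control, with close replicates. Rgs2, Egr2, Egr3, Nr4a2 and Ier2 were also lower in each PM2.5 library than in each control, with control 2 far above controls 1 and 3. Egr1, Nr4a1 and Nr4a3 overlapped between the groups. Their log2 fold changes of -2.34, -2.35 and -3.19 became 0.40, -0.82 and -1.16 without control 2. Of the 10 genes 1, Ier3, was called lower (edgeR, Benjamini-Hochberg adjusted over the 15303 genes), beside 0.738% of all genes.

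**Figure D1:**
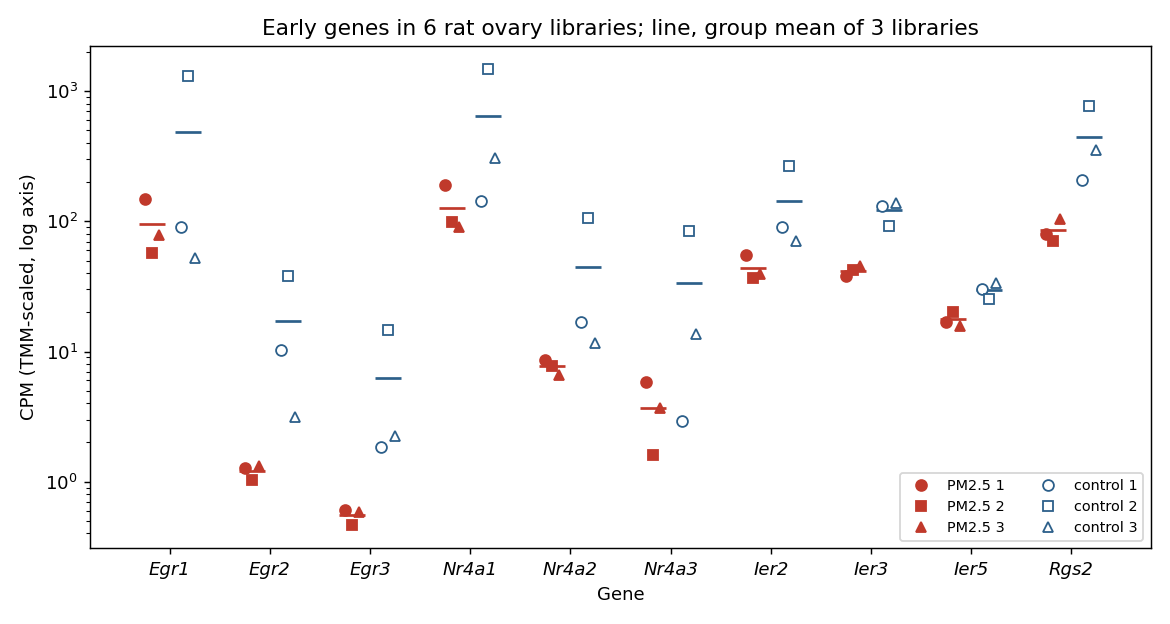
Level of the 10 early genes in each of the 6 libraries, in CPM on a log axis, with PM2.5 libraries (filled) left of control libraries (open) and a line at each group's mean of 3. Control 2 is the highest library for 8 genes and the lowest control for Ier3 and Ier5.

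Egr1, the best known of the family and needed for female fertility in mice, had 149, 56.9 and 79.1 CPM in PM2.5 libraries 1 to 3, against 91.1, 1306 and 52.6 CPM in controls 1 to 3. Control 2 stood 18.2-fold above the mean of controls 1 and 3, and those controls lay within the range of the PM2.5 libraries or just under it. The log2 fold change was -2.34 ± 1.19 (SE, as for every value after ± on a log2 fold change), with an edgeR quasi-likelihood adjusted p of 0.306. Without control 2 the log2 fold change of Egr1 was 0.40 ± 0.46, on the other side of 0. The negative value of Egr1 thus rested on control 2.

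Egr2, known for its role in hindbrain patterning and myelination, was low but set apart. It had 1.28, 1.02 and 1.31 CPM in PM2.5 libraries, from 67, 62 and 65 counts, against 10.2, 37.9 and 3.15 CPM in controls, from 490, 1938 and 156 counts. Each control exceeded each PM2.5 library, and the PM2.5 libraries differed among themselves by 1.28-fold while the controls differed by 12.0-fold. Its log2 fold change was -3.83 ± 0.89, with an edgeR quasi-likelihood adjusted p of 0.0970, and -2.48 ± 0.57 without control 2.

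Egr3, which acts in muscle spindle development and lymphocytes, had the lowest FPKM of the 10 genes in both groups (FPKM, the authors' fragment level scaled by gene length and library size). It had 0.610, 0.461 and 0.584 CPM in PM2.5 libraries, from 32, 28 and 29 counts, against 1.84, 14.6 and 2.24 CPM in controls, from 88, 744 and 111 counts. The groups did not overlap, with control 1 the nearest control to the PM2.5 libraries. For Egr3 the log2 fold change was -3.49 ± 0.90, with an edgeR quasi-likelihood adjusted p of 0.116, and -1.88 ± 0.43 without control 2. Egr2 and Egr3 averaged 0.363 and 0.162 FPKM in PM2.5 libraries, below the 0.5 FPKM that a gene needed over all 6 libraries to be tested, so both entered the test through their level in the controls.

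Among the NR4A genes, Nr4a1, which encodes NUR77, had 190, 99.7 and 90.6 CPM in PM2.5 libraries, against 142, 1488 and 307 CPM in controls. PM2.5 library 1 lay above control 1, so the groups overlapped. For Nr4a1 the log2 fold change was -2.35 ± 0.85, with an edgeR quasi-likelihood adjusted p of 0.192, and -0.82 ± 0.45 without control 2.

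Nr4a2, which encodes NURR1 and is required for midbrain dopamine neurons, had 8.68, 7.76 and 6.65 CPM in PM2.5 libraries, against 16.8, 107 and 11.5 CPM in controls. Each PM2.5 library lay below each control, and the PM2.5 libraries were within 1.31-fold of each other. For Nr4a2 the log2 fold change was -2.55 ± 0.84, with an edgeR quasi-likelihood adjusted p of 0.164, and -0.88 ± 0.29 without control 2.

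Nr4a3, which encodes NOR1, had 5.80, 1.61 and 3.69 CPM in PM2.5 libraries, against 2.93, 85.0 and 13.6 CPM in controls. Control 1 lay inside the range of the PM2.5 libraries, and the controls differed among themselves by 29.0-fold, the widest of the 10 genes. Its log2 fold change was -3.19 ± 1.17, with an edgeR quasi-likelihood adjusted p of 0.195, and -1.16 ± 0.79 without control 2.

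The IER genes share a name from the way they were found and not a protein family, apart from Ier2 and Ier5, which share an N-terminal region. Ier3, also called IEX-1, a small membrane protein tied to cell survival under stress, fell to 38.1, 42.3 and 45.2 CPM in PM2.5 libraries, against 132, 92.8 and 139 CPM in controls. The means were 41.9 ± 3.59 CPM in PM2.5 libraries and 121 ± 24.9 CPM in controls (SD, n = 3 each). The lowest control was 2.05-fold above the highest PM2.5 library, and here control 2 was the lowest control. Its log2 fold change was -1.53 ± 0.19, with an edgeR quasi-likelihood adjusted p of 0.0434, and without control 2 it was -1.69 ± 0.14 with an adjusted p of 0.0598. That call was lost with any 1 library left out (edgeR quasi-likelihood adjusted p between 0.0598 and 0.230) and without the filter on low values (0.0505). Its log2 fold change stayed between -1.69 and -1.42 under all 18 alternatives.

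Ier5, a nuclear protein that binds the phosphatase PP2A, had 17.0, 20.2 and 15.8 CPM in PM2.5 libraries, against 30.5, 25.2 and 33.7 CPM in controls. The groups were apart, with control 2 again the lowest control. Its log2 fold change was -0.75 ± 0.19, the smallest in size of the 10 genes, with an edgeR quasi-likelihood adjusted p of 0.114, and -0.86 ± 0.19 without control 2.

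Ier2, a nuclear regulator of transcription, had 54.9, 37.0 and 39.2 CPM in PM2.5 libraries, against 91.1, 267 and 71.2 CPM in controls. The groups were apart, and control 2 stood 3.29-fold above the mean of controls 1 and 3. Its log2 fold change was -1.71 ± 0.51, with an edgeR quasi-likelihood adjusted p of 0.140, and -0.89 ± 0.23 without control 2.

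Rgs2, which speeds the hydrolysis of GTP on the Gq alpha subunit and so damps receptor signals, had the highest mean FPKM of the 10 genes in both groups. It had 79.9, 71.2 and 105 CPM in PM2.5 libraries, against 209, 773 and 357 CPM in controls. The means were 85.3 ± 17.5 CPM in PM2.5 libraries and 446 ± 292 CPM in controls (SD, n = 3 each). The groups were apart, and control 1, the lowest control, was 2.00-fold above PM2.5 library 3, the highest of its group. The log2 fold change was -2.39 ± 0.48, with an edgeR quasi-likelihood adjusted p of 0.0724, and -1.73 ± 0.28 without control 2.

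**Figure D2:**
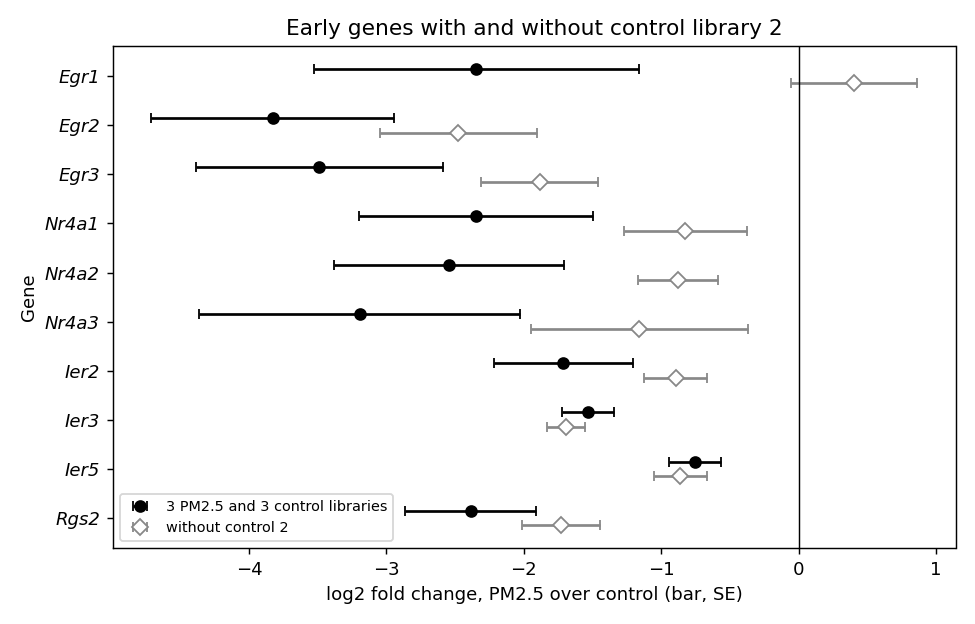
Log2 fold change, PM2.5 over control, of the 10 early genes with its SE, from all 6 libraries (filled) and without control 2 (open). Without control 2 the value of Egr1 is 0.40 and the other 9 stay negative, and those of Ier3 and Ier5 are further from 0 than with it.

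Counted over the 10 genes, every PM2.5 library lay below every control for 7, where this held for 15.2% of all tested genes. An unadjusted p below 0.05 with a lower level in PM2.5 was found in edgeR for 9 genes, all except Egr1, where 11.7% of all tested genes met it. The median log2 fold change of the 10 genes was -2.37, beside 0.00 for all tested genes. Without control 2, edgeR called 0 of the 10, where it called 0.0327% of all genes lower. Of the 10 genes 7 still had an unadjusted p below 0.05 without control 2, beside 12.7% of all genes lower at that level, and the median log2 fold change was -1.03. DESeq2 called 7 of the 10 lower over all 6 libraries, with 6.77% of all genes called lower by it. The 3 that DESeq2 did not call were Nr4a1, Nr4a3 and Egr1, to which it gave no adjusted p. Egr2 and Egr3, which entered the test through their control level, are among all of these counts. Of the other 8 genes, 5 had every PM2.5 library below every control, 7 had an unadjusted p below 0.05 in edgeR, 5 had one without control 2, and DESeq2 called 5. The genes were chosen with earlier results of these data known, so these counts describe them and do not test them as a set.

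Control 2 moved most of these genes together. Its level was at least 2-fold above the mean of controls 1 and 3 for 8 of the 10 genes, a size that 7.42% of all tested genes reached, and it was the highest of the 6 libraries for the same 8 genes, as for 13.8% of all tested genes. The 10 genes made up 0.0540, 0.0338 and 0.0388% of all counts in PM2.5 libraries 1 to 3, against 0.0731, 0.433 and 0.0952% in controls 1 to 3. For a tested gene, the SD of log2 CPM among PM2.5 libraries had a median of 0.27 and that among controls a median of 0.31, while the medians over the 10 genes were 0.24 among PM2.5 libraries and 1.67 among controls. By these medians the uneven levels were those of the controls. Nr4a3, Egr1 and Nr4a1 also varied among PM2.5 libraries, with an SD of 0.92, 0.71 and 0.58, against 2.42, 2.48 and 1.73 among controls. Within the PM2.5 group, library 1 had the highest level for 6 of the 10 genes, library 3 for 3 and library 2 for 1.

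**Figure D3:**
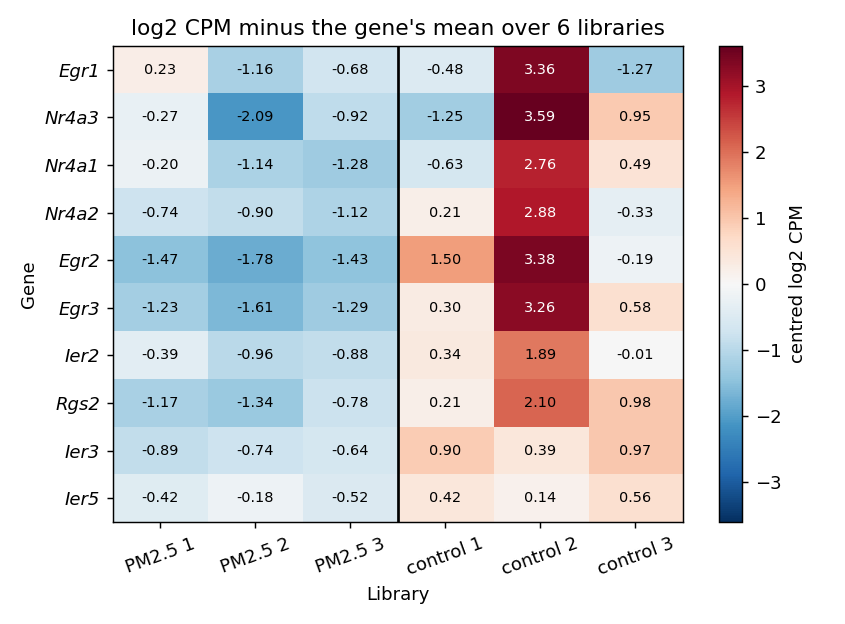
Log2 CPM of each early gene minus its mean over the 6 libraries, PM2.5 libraries left of the line and controls right of it. Control 2 reaches 3.59 for Nr4a3 and 3.36 for Egr1, while for Ier3 and Ier5 it holds 0.39 and 0.14, below both other controls.

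Levels of different genes were compared per length, in FPKM. In PM2.5 libraries the order of mean FPKM was Rgs2 at 45.4, Nr4a1 at 42.8, Ier3 at 34.2 and Egr1 at 27.4, and neighbours among these 4 overlapped in range. Below them came Ier5 at 11.6, Ier2 at 7.80 and Nr4a2 at 2.00, each apart from its neighbours, then Nr4a3 at 0.606, which overlapped Egr2 at 0.363, and Egr3 at 0.162. In controls the order of mean FPKM was Rgs2 at 240, Nr4a1 at 222, Egr1 at 143, Ier3 at 98.2, Ier2 at 25.9, Ier5 at 19.4, Nr4a2 at 12.0, Nr4a3 at 5.68, Egr2 at 5.31 and Egr3 at 1.88. Of these neighbours only Ier3 and Ier2 did not overlap in range in the controls. By mean FPKM both groups thus had Rgs2 highest and Egr3 lowest, and the genes that changed place were Egr1 and Ier3, and Ier2 and Ier5. Both changes came from control 2. In controls 1 and 3 Ier3, at 108 and 109 FPKM, was above Egr1, at 26.2 and 14.5 FPKM. Likewise Ier5, at 19.9 and 21.2 FPKM, was above Ier2, at 16.2 and 12.2 FPKM, as in the PM2.5 order.

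A ratio of FPKM between genes of the same library does not depend on how libraries are scaled. These ratios were chosen after the values had been seen, 9 in all, and an exact two-sided permutation test over 3 against 3 libraries cannot go below p = 0.1. Egr2 came to 0.901, 1.87 and 1.73% of the Egr1 level in PM2.5 libraries, against 11.8, 3.06 and 6.29% in controls. Egr3 came to 0.413, 0.825 and 0.751% of the Egr1 level in PM2.5 libraries, against 2.08, 1.15 and 4.33% in controls. In both ratios every PM2.5 library was below every control, control 2 included. Each had an exact permutation p of 0.1, the lowest possible, and 0.3 after Benjamini-Hochberg adjustment over the 9 ratios. Egr2 and Egr3 averaged below the 0.5 FPKM filter in PM2.5 libraries and passed it through the controls, so both ratios are given as a description only. Control 2, with the highest Egr1 level, was the control nearest to the PM2.5 libraries in both ratios.

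Between Egr3 and Egr2 the ratio was 45.8, 44.1 and 43.4% in PM2.5 libraries, against 17.5, 37.5 and 68.8% in controls, so the groups overlapped (exact permutation p = 0.7). Ier5 came to 35.9, 38.3 and 28.1% of the Ier3 level in PM2.5 libraries, against 18.5, 21.8 and 19.5% in controls. The groups were apart, with a log2 difference of 0.76 and an exact permutation p of 0.1, as Ier5 differed less between the groups than Ier3. The 3 ratios among NR4A genes and the 2 with Ier2 overlapped between the groups, with exact permutation p between 0.5 and 1. Nr4a1 made up 95.2, 93.6 and 92.9% of the summed NR4A level in PM2.5 libraries, against 90.8, 92.3 and 95.2% in controls, so it was the main NR4A transcript in every library.

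**Figure D4:**
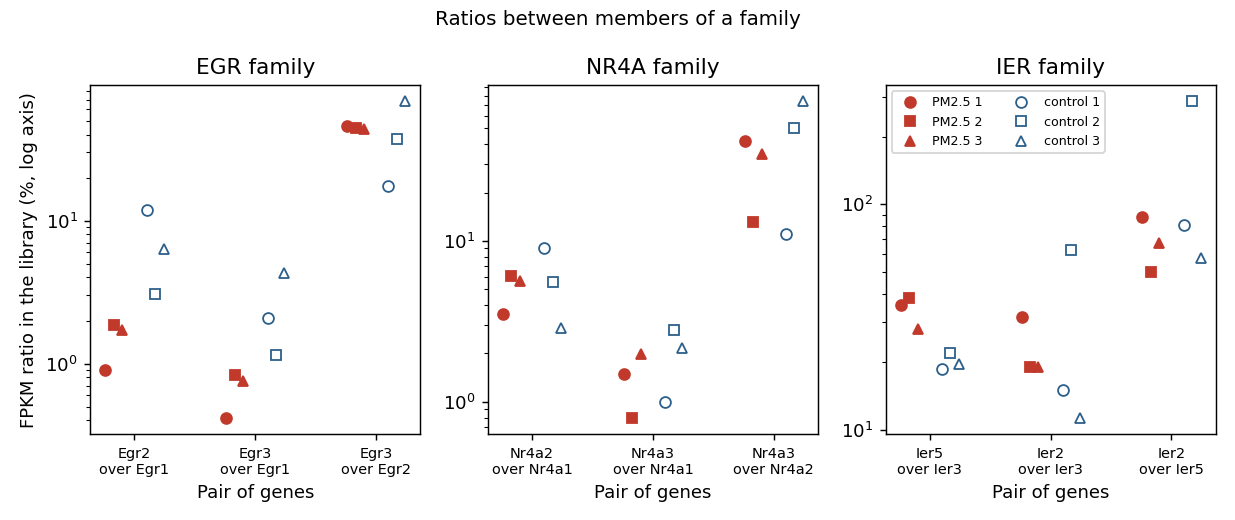
FPKM of one gene as a percentage of another gene of the same library, on log axes, for the EGR, NR4A and IER genes, with PM2.5 libraries (filled) left of controls (open). The groups are apart for Egr2 over Egr1, Egr3 over Egr1 and Ier5 over Ier3 and overlap for the other 6 ratios.

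The early genes are compact. Their spans in the deposited table had a median of 4174 bp, beside 19381 bp for all tested genes, from Ier3 at 1206 bp to Nr4a3 at 40912 bp. In the table's own coordinates, for which no build was named in the sources, Ier3 lies on chromosome 20 from 2928378 to 2929583, Rgs2 on chromosome 13 from 55798829 to 55802385, Egr1 on chromosome 18 from 26462981 to 26466766 and Egr2 on chromosome 20 from 21051277 to 21055562. No other row of the table overlapped any of the 10 genes on either strand. Of the 10 genes 7 carried the table's term for positive regulation of transcription by RNA polymerase II, which 649 tested genes carried.

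The genes around them in the pathway were read from lists chosen with earlier results of these data known, and each is described by its counts and median. Of their 92 tested genes edgeR called 5, all lower, where it called 0.738% of all tested genes lower. With any 1 library left out it called 0 to 1 of the 92. The corepressors and the remaining EGR gene came first. Nab2, an EGR corepressor that EGR proteins are known to induce, fell to 35.1, 29.6 and 31.4 CPM in PM2.5 libraries, against 73.3, 109 and 99.6 CPM in controls. The groups were apart with control 2 close to control 3, and the log2 fold change was -1.55 ± 0.18 with an edgeR quasi-likelihood adjusted p of 0.0434. Its relative Nab1 had a log2 fold change of -0.07 ± 0.18. Egr4 had 0.134, 0 and 0.242 CPM in PM2.5 libraries, against 0.251, 13.6 and 0.0808 CPM in controls, so it was detected above 1 CPM in control 2 and in no other library.

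Regulators thought to lie upstream were read next. Of 11 tested genes of the serum response factor, ternary complex factor and ERK list none was called, with a median log2 fold change of -0.09. In edgeR 3 had an unadjusted p below 0.05, all lower, where 11.7% of all tested genes were lower at that level. These were Map2k1, an ERK kinase, at -0.48 ± 0.14, and the ternary complex factors Elk4 at -0.46 ± 0.16 and Elk3 at -0.74 ± 0.27. Rps6ka3, a kinase downstream of ERK, had a log2 fold change of 0.32 ± 0.19, and Srf itself -0.23 ± 0.17. Of 11 tested genes of the CREB and protein kinase A list none was called, with a median of -0.04. Crem, whose short ICER forms are induced by cyclic AMP, had 48.5, 32.6 and 37.7 CPM in PM2.5 libraries, against 41.3, 323 and 103 CPM in controls, so control 2 was its highest library and the groups overlapped. The log2 fold change of Crem was -1.98 ± 0.68, the 1 value of this list that was lower at an unadjusted p below 0.05 (edgeR quasi-likelihood adjusted p of 0.177). Prkaca, the catalytic subunit of protein kinase A, had a log2 fold change of 0.50 ± 0.21, Prkacb 0.34 ± 0.15 and Crtc1 -0.41 ± 0.22. Prkaca was the 1 gene of this list that was higher at an unadjusted p below 0.05 in edgeR, where 9.17% of all tested genes were. For Prkaca and Prkacb each PM2.5 library was above each control.

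The receptors that work beside NR4A proteins were not called either, with 4 tested and a median log2 fold change of 0.24. Nr5a2, the receptor LRH-1 of granulosa and luteal cells, had 103, 79.5 and 95.0 CPM in PM2.5 libraries, against 52.5, 70.7 and 55.8 CPM in controls, and Nr5a1, the receptor SF-1, had a log2 fold change of -0.74 ± 0.25. Each PM2.5 library was above each control for Nr5a2 (log2 fold change 0.63 ± 0.17, edgeR quasi-likelihood adjusted p of 0.125). Rxra and Rxrb, partners of NR4A proteins on DNA, had log2 fold changes of 0.36 ± 0.34 and 0.13 ± 0.19. Of 7 tested genes listed as steroid genes with NR4A or NR5A sites none was called, and 6 had negative values. The median log2 fold change was -0.55, which is the value of Insl3, a hormone and not a steroid enzyme. Akr1c3, which in the rat corpus luteum is known to respond to NUR77, had 296, 1336 and 2000 CPM in PM2.5 libraries, against 4585, 4244 and 9536 CPM in controls. Its groups were apart without control 2 standing out, with a log2 fold change of -2.34 ± 0.69 and an edgeR quasi-likelihood adjusted p of 0.142. Insl3, a theca and luteal hormone, had a log2 fold change of -0.55 ± 0.15, Cyp17a1, the androgen-forming enzyme of theca cells, -1.55 ± 0.75, and Cyp11a1, which makes pregnenolone, 0.76 ± 0.45.

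Among 10 tested genes listed as EGR1 targets the median log2 fold change was -0.60, with 7 negative and 1 called. Tgfb1, a growth factor, fell to 23.8, 19.2 and 26.4 CPM in PM2.5 libraries, against 67.2, 66.0 and 120 CPM in controls (log2 fold change -1.87 ± 0.28, edgeR quasi-likelihood adjusted p of 0.0442). Control 2 did not stand out for Tgfb1. The protease inhibitor Timp1 was at -0.87 ± 0.30 on the log2 scale, PM2.5 over control, and was not called.

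Of 26 tested other early genes 1 was called, 18 had negative values, and the median log2 fold change was -0.71, or -0.17 without control 2. Control 2 was the highest library for 17 of the 26, as for 13.8% of all tested genes. Ier5l, a relative of Ier5, fell to 6.94, 7.23 and 6.18 CPM in PM2.5 libraries, against 21.1, 20.7 and 19.6 CPM in controls, with control 2 between the other controls (log2 fold change -1.59 ± 0.20, edgeR quasi-likelihood adjusted p of 0.0434). Arc, a neuronal early gene, had 2.61, 2.13 and 1.37 CPM in PM2.5 libraries, against 14.4, 42.5 and 10.02 CPM in controls (log2 fold change -3.45 ± 0.62). Csrnp1 had a log2 fold change of -1.21 ± 0.24 and Cebpb, a transcription factor needed for luteinization, -1.19 ± 0.28, and none of these 3 passed. In the opposite direction, Ccn2, a matrix-associated target of the Hippo pathway, had 296, 329 and 494 CPM in PM2.5 libraries, against 186, 224 and 118 CPM in controls (log2 fold change 1.08 ± 0.30, not called). It was the 1 gene of the 26 with an unadjusted p below 0.05 in edgeR and a higher level in PM2.5. Of all tested genes 9.17% met that. Lower at that level in edgeR were 10 of the 26, beside 11.7% of all tested genes.

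Relatives of Rgs2 went in both directions, with 11 tested, a median log2 fold change of -0.31 and 6 negative values. Rgs19 fell to 7.48, 10.7 and 11.1 CPM in PM2.5 libraries, against 31.3, 26.6 and 24.4 CPM in controls (log2 fold change -1.49 ± 0.23, edgeR quasi-likelihood adjusted p of 0.0463). Rgs16, which acts on Gi and Gq subunits, was at -1.47 ± 0.34, Rgs20 at 1.11 ± 0.41 and Rgs12 at 0.31 ± 0.14, and none of the 3 passed. Control 2, the highest library for Rgs2, was the highest for 2 of these 11, as for 13.8% of all tested genes.

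The last list held genes that luteinizing hormone raises in the follicle, with 9 tested, 6 negative and a median log2 fold change of -0.81, or -0.36 without control 2. Ereg, an epidermal growth factor receptor ligand, had 0.630, 0.362 and 0 CPM in PM2.5 libraries, against 0, 34.8 and 0.848 CPM in controls. Like Egr4, it was high in control 2 alone. Areg, a ligand of the same receptor, had 0.172, 0.214 and 0.403 CPM in PM2.5 libraries, against 5.54, 16.7 and 2.81 CPM in controls, and Adamts1, a protease, had a log2 fold change of -0.83 ± 0.19, and neither passed. Edn2, an endothelin of ovulatory follicles, was the 1 gene of the list called lower (edgeR), with 0, 4 and 0 counts in PM2.5 libraries, against 2786, 6720 and 306 counts in controls. Edn2, Areg and Ereg averaged 0.0159, 0.185 and 0.332 FPKM in PM2.5 libraries, below the 0.5 FPKM filter, so all 3 entered the test through the controls.

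**Figure D5:**
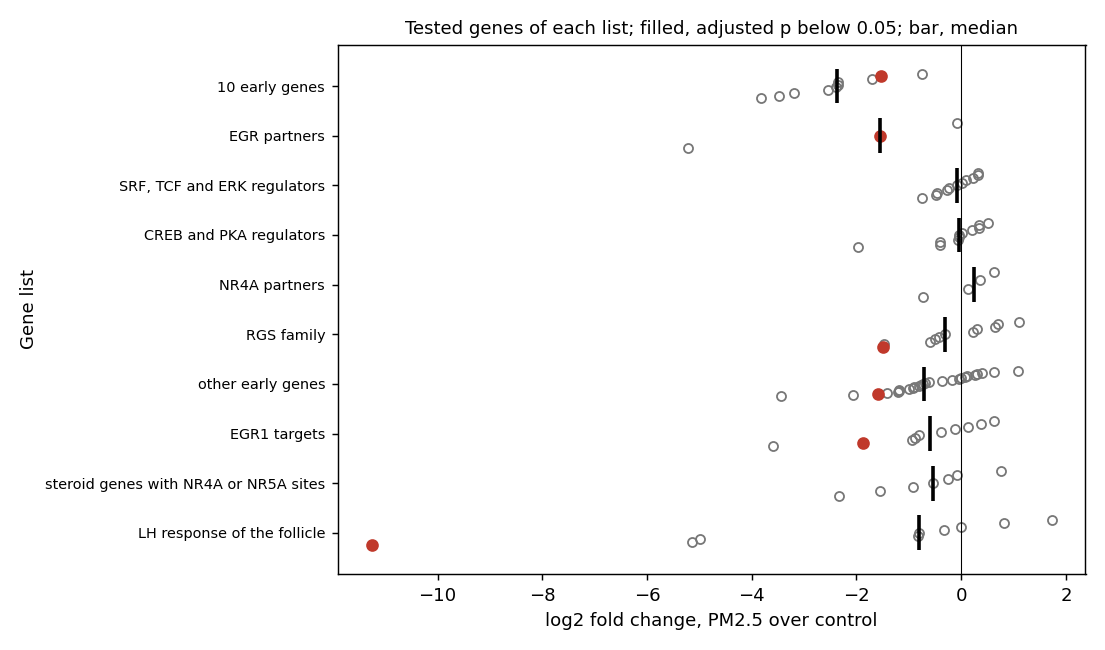
Log2 fold change, PM2.5 over control, of each tested gene in the 10 early genes and in the 9 lists around them, with filled points at an adjusted p below 0.05 and a bar at the list's median. Every filled point is below 0, and the point near -11 is Edn2, with 4 counts in all PM2.5 libraries together, so its size is not a measured bound.

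The genes whose profile over the 6 libraries was most like the early genes were found among 13007 named genes by the root mean square difference of centred log2 CPM. Nearest to the mean profile of the 10 genes were Socs1, an inhibitor of cytokine signalling, at 0.35, the unannotated LOC120103261 at 0.38, Crem at 0.39, Enc1 at 0.40, the antiproliferative gene Btg2 at 0.41 and Coq10b at 0.42. Among the nearest to Egr1 were Slc38a4 at 0.65 and Dusp8, a phosphatase of MAP kinases, at 0.67. Nearest to Rgs2 were Socs1 at 0.38, Fos at 0.38 and Plaur, the urokinase receptor, at 0.39. Socs1 had 4.41, 2.80 and 3.06 CPM in PM2.5 libraries, against 5.98, 19.9 and 10.2 CPM in controls. It was highest in control 2, like the mean profile that it was selected to match. The 10 genes themselves lay between 0.28, for Ier2, and 1.03, for Ier5, from their mean profile. Fos, which Rgs2 resembled, had 26.8, 21.7 and 23.9 CPM in PM2.5 libraries, against 116, 286 and 110 CPM in controls.

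The summed level of 3 marker lists of other cell types separated the groups, in 2 of them through 1 or a few genes. Of 6 erythroid genes 3 were called higher, where 0.190% of all tested genes were. The list summed to 2736 to 4267 CPM in PM2.5 libraries and 784 to 1043 CPM in controls. The T and NK cell list, 7 of 8 genes in the table, summed to 9.21 to 13.3 CPM in PM2.5 libraries and 23.5 to 51.9 CPM in controls. That gap came from Gzmb, called lower, with 0.858 to 2.42 CPM in PM2.5 libraries and 12.0 to 43.0 CPM in controls. Without Gzmb the list summed to 8.24 to 10.9 CPM in PM2.5 libraries and 8.87 to 11.5 CPM in controls, which overlapped. Prf1 was also lower in each PM2.5 library than in each control, at 0.379 to 1.07 CPM against 1.94 to 2.12 CPM. Its log2 fold change of -1.44 ± 0.48 was not called. Cd3e was at 0.584 to 1.10 CPM in PM2.5 libraries and 0.690 to 1.41 CPM in controls, and Cd3d, Cd3g, Cd8a and Nkg7 overlapped as well. The adipocyte list summed to 17.3 to 58.4 CPM in PM2.5 libraries and 8.99 to 15.5 CPM in controls, with 0 of 3 tested genes called by edgeR and 2 at an unadjusted p below 0.05, Adipoq and Fabp4. Adipoq made up most of it in PM2.5 libraries 1 and 2, with 33.3, 33.8 and 2.60 CPM in PM2.5 libraries, against 1.94, 1.80 and 0.929 CPM in controls, while Plin1 and Lep overlapped between the groups. The oviduct list, 3 of 5 genes in the table, summed to 147, 250 and 32.3 CPM in PM2.5 libraries, against 17.2, 36.5 and 3.49 CPM in controls, so its sums overlapped between PM2.5 library 3 and control 2. Its gene Pax8 was higher in each PM2.5 library than in each control, with a log2 fold change of 2.80 ± 0.86 that edgeR did not call. Macrophage, endothelial, smooth muscle, neutrophil and the theca and luteal lists overlapped between the groups. In control 2 the follicle and oocyte list summed to 5011 CPM, between 5330 CPM in control 1 and 1328 CPM in control 3. Inha alone held 3253 CPM of it. The aromatase Cyp19a1 and Lhcgr were highest in control 2 of all libraries, at 725 and 323 CPM. Foxl2 was lowest there, at 35.1 CPM, and the other genes of that list were highest in PM2.5 library 3. Of the theca and luteal list Cyp17a1 was highest in control 2, at 202 CPM. Star, Cyp11a1, Insl3, Akr1c3 and Ptgfr were there at 0.56 to 0.81 of the mean of controls 1 and 3. The oviduct list sum in control 2 was 3.53-fold the mean of controls 1 and 3, and no other list sum exceeded 1.51-fold of that mean. No marker in the table was at 0 in every library. The part of these cell types in the early gene levels was not tested.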

How the data were processed

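Bulk poly(A) RNA of rat ovary was sequenced as strand-marked (dUTP) paired-end libraries, per the labels' protocols. The submitters' processing notes list HISAT2 2.2.1, StringTie 2.1.6 and cutadapt 1.9 beside edgeR and DESeq2, without roles; build, annotation and strand setting were not named in the sources. The deposited table holds a raw count per gene and library and the authors' FPKM.

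Counts as deposited were fitted with edgeR 4.0.16 in R 4.3.3 (TMM factors, glmQLFit, glmQLFTest, PM2.5 over control), keeping genes whose mean reached 0.5 FPKM, with two-sided p adjusted by Benjamini-Hochberg over all tested genes at 0.05. The SE is the log2 fold change divided by the root of F. Log2 CPM profiles add a prior count of 2. The fit was tested on simulated counts. Limma 3.58.1 on log2(FPKM + 1) and DESeq2 1.42.0 were alternatives. Libraries of a group differed by more than sampling noise (chi-square per degree of freedom 112 or more).

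The members and lists were chosen with earlier results of these data known. Named genes are the 10 members, up to 4 genes with the smallest p of each list and any called, and the nearest profiles at a mean of at least 1 FPKM. Srf, Ccn2 and the single marker genes are outside this rule and were chosen after their values were seen. A few further genes under the rule are not reported here.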

Additional observations from a re-analysis of the deposited data

How the results depend on the processing

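Over 18 alternatives the 10 early genes gave 180 log2 fold changes, and 1 turned positive, Egr1 without control 2 at 0.40 (-2.87 to 0.40 with each library left out). The number of early genes called was 1, and it was 0 without a filter on low values, 7 with DESeq2 (all lower) and 0 to 0 with each library left out, where edgeR still gave 6 to 10 of them an unadjusted p below 0.05. All genes called numbered 142 (29 higher, 113 lower), 8 unfiltered, 87 under filterByExpr, 1767 by DESeq2 (731 higher, 1036 lower) and 0 to 7 when 1 library was left out (1893 to 3501 at an unadjusted p below 0.05 in edgeR). List genes called numbered 5, and 0 unfiltered, 3 under filterByExpr, 22 by DESeq2 (2 higher, 20 lower) and 0 to 1 when 1 library was left out. Other scalings, the stricter filter, robust estimation and limma with 3 pseudocounts kept each of these counts of calls within 1.5 times. With limma the early genes at an unadjusted p below 0.05 numbered 5 to 6, against 9 in edgeR, and their median log2 fold change was -1.44 to -1.77, against -2.37. On log2(FPKM + 1), which understates low genes, Egr3 was at -1.04, and on log2(FPKM + 0.1) it was at -2.31. Egr1, which is not a low gene, was at -1.06 and -1.07 on these scales, so its limma value hardly depended on the pseudocount. The labels do not say that same-numbered libraries were paired, and their deviations from the group means correlated at -0.18, 0.16 and 0.09. With the replicate block, 1 gene of all, 0 early genes (7 at an unadjusted p below 0.05 in edgeR) and 1 list gene were called. Where a call was lost, the cause was not tested, beyond fewer samples entering the fit. Depth limits Egr3, which had 28 to 32 counts per PM2.5 library.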
